A study of Mus musculus with 148 samples.

Results

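The granzyme genes Gzma, Gzmb, Gzmk and Gzmm, the perforin gene Prf1 and the granule membrane gene Nkg7 were followed across T and natural killer (NK) cells of lungs, lung metastases and primary tumors. These are 6 of the 52634 gene rows of the plate count files, listed by name as the core of the cytotoxic granule. They were described in the 9356 cells that the deposited annotation placed in 7 T and 2 NK labels, of 24020 annotated cells. Gzma was high in NK_Ncr1 cells and in T_CD8_Gzma cells and had a mean of 276 CPM or less (counts scaled to 1000000 per sum of cells) in every T label but T_CD8_Gzma, whereas Nkg7 was present in NK cells and in every CD8 label, including the naive T_CD8_Dapl1. Gzmk, for which the label T_CD8_Gzmk is named, was found in 6.89% of the cells of that label and in 20.5% of T_CD8_Gzma cells. In the 3 labels tested between tissues, NK_Ncr1, T_CD8_Gzmk and T_CD8_Lag3, no member passed an adjusted p of 0.05 by edgeR. Of all genes tested, 0% to 0.847% passed it in each comparison, so few calls among any small set would be found.

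Cytotoxic lymphocytes store granzymes with perforin in secretory granules and release them at the contact with a target cell. Perforin forms pores through which granzymes enter. Granzyme B cleaves after aspartate and activates caspases, granzymes A and K cleave after basic residues, and granzyme M prefers methionine or leucine. Nkg7 is a membrane protein of the granules that takes part in their release. In the lung, NK cells and effector CD8 T cells are the main carriers of these granules, and in tumors regulatory T cells (Treg) are also known to express Gzmb.

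All mice were females of the strain C57/b6 PA-GFP, in which cells can be made fluorescent by light. Except in Normal, the control lungs, they had received the breast cancer cell line EO771 marked with tdTomato in a mammary gland at the age of 8 weeks, and the primary tumor was resected after 3 weeks in the mice that were followed for metastasis. Lungs were taken from tumor-bearing mice before resection (Pre-MET, 3 mice), from mice without metastases (Relapse-free, 6 mice) and, in mice with metastases, from tissue without a lesion (Distal normal tissue, 14 mice), from sections with a lesion (MET, 13 mice), and from the photoactivated core (MET Core, 13 mice) or edge (MET Invasive margin, 7 mice) of a lesion. The other groups were Normal (3 mice) and Primary, the mammary tumor (4 mice). Cells were sorted as CD31- CD45+, but all core and margin plates as CD31- GFP+ after photoactivation, so the gate differs between these and the other groups. Relapse-free plates mixed gates, since some were sorted as GFP-positive or GFP-negative cells. Several mice gave more than 1 tissue, and mice 8, 9 and 10 gave both Pre-MET and Primary. The model rests on 1 tumor line.

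Counts were summed over the cells of 1 mouse, tissue and label with at least 5 cells, and given as CPM, each count scaled to a library of 1000000 unique molecular identifiers (UMIs). There were 293 such sums of 2595 to 546809 UMIs (median 18150), so that 1 UMI in the median sum is 55.1 CPM. Primary tumor T and NK cells had a median of 2084 UMIs per cell, against 859 to 1067 in the other tissues. No well name occurred in more than 1 plate file. Empty wells (592, with a median of 8 UMIs) gave Gzma in 10 wells, Nkg7 in 13, Gzmb and Prf1 in 2 each, and Gzmk and Gzmm in 0. In B cells, which should lack these genes, 6.35% of 1055 cells (median 1001 UMIs) had a UMI of Gzma and 8.06% one of Nkg7. In T_CD4_Lef1 cells the figure for Gzma was 8.92% of 3026 cells (median 933.5 UMIs). The labels matched their markers in part. Ncr1 was found in 41.0% of NK_Ncr1 cells and 30.8% of NK_Xcl1 cells, Cd8a in 28.5% to 58.8% of the cells of each CD8 label, and Foxp3 in 26.2% of T_Treg cells. T_CD4_Lef1 cells went against their name, with Cd8b1 in 18.7% and Cd4 in 7.67%.

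The genes lie at 4 chromosomes of the mouse genome (GRCm38, GENCODE vM21). Gzma (ENSMUSG00000023132.8, chr13:113093825-113100981) and Gzmk (ENSMUSG00000042385.14, chr13:113171608-113225908) are neighbors on the minus strand of chromosome 13, 70626 bases apart. Gzmb (ENSMUSG00000015437.5) is at chr14:56258838-56262260 on the minus strand, and on plus strands lie Gzmm (ENSMUSG00000054206.2, chr10:79689020-79695261), Prf1 (ENSMUSG00000037202.6, chr10:61297833-61304680) and Nkg7 (ENSMUSG00000004612.9, chr7:43437073-43438249). The promoters of the neighbors Gzma and Gzmk on chromosome 13, of which Gzma and not Gzmk was high in NK_Ncr1, and of Gzmb and Prf1, which were both highest in NK_Ncr1 by mean, are shown from RefSeq for GRCm38.p6, 250 bases before to 50 after the gene start. They lie at chr13:113100932-113101231 (Gzma, minus strand), chr13:113180916-113181215 (Gzmk, minus strand), chr14:56262285-56262584 (Gzmb, minus strand) and chr10:61297586-61297885 (Prf1, plus strand) and read 5′ to 3′ on the gene's strand. Capitals mark 2 motifs searched on both strands: TGTGGT, the core read by Runx factors, and TCACAC, a T-box half-site. The reverse complements were marked too, where the gene's strand holds the motif on the other strand.
Gzma: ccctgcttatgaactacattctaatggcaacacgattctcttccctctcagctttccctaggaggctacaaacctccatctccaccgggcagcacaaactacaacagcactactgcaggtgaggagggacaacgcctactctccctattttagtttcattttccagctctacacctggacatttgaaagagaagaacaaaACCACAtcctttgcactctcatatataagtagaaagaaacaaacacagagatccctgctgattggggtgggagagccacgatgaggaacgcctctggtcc
Gzmk: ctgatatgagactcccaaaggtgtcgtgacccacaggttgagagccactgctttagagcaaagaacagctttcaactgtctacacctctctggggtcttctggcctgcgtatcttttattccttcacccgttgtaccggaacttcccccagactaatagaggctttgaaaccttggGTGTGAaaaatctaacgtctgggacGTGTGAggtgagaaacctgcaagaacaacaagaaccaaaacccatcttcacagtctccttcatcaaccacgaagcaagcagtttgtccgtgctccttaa
Gzmb: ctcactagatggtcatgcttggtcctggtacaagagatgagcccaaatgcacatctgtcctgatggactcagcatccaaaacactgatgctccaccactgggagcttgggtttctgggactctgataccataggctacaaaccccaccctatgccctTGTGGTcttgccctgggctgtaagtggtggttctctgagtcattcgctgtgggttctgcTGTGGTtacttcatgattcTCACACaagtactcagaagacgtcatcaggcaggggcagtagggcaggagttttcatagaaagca
Prf1: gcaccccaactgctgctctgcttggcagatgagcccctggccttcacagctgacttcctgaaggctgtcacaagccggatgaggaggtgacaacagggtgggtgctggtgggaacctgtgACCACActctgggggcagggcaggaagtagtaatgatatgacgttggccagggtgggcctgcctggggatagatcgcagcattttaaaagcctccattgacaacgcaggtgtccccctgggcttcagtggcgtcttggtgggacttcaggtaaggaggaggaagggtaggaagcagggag
The Gzma and Prf1 windows held 1 Runx match each, the Gzmb window 2 and 1 T-box match, and the Gzmk window 2 T-box matches and no Runx match. Nkg7 held 1 of each, and the 2 listed starts of Gzmm held 1 Runx match and 2 T-box matches. Over all 32851 promoter windows of 300 bases, 16.8% held the Runx letters and 14.5% the T-box letters, so a match is a description of the letters only. The Gzmk start used by RefSeq lies inside the GENCODE gene.

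The levels across labels are a description, because the annotation came from clustering of these same cells. T_CD8_Gzma and T_CD8_Gzmk are named for members, and whether the clustering used every member is not known. Each sum is 1 mouse and tissue, and values are mean ± SD. Gzma reached 13278 ± 3100 CPM in NK_Ncr1 (n = 56, 5784 to 22106) and 11408 ± 2941 CPM in T_CD8_Gzma (n = 16, 6764 to 15193). These overlapped, although NK_Ncr1 was the higher in 12 of the 16 samples with both. NK_Xcl1 followed at 4899 ± 4279 CPM (n = 14, 107 to 12859), a range that overlapped both labels above it, and NK_Ncr1 exceeded it in 11 of 13 samples. In the other 6 labels the mean was between 23.6 CPM in T_Treg and 276 CPM in T_CD8_Lag3, next to 58.7 ± 72.8 CPM in B cells (n = 33) and 56.0 ± 90.4 CPM in neutrophils (n = 47). All of these neighbors in the order overlapped. The T_CD8_Lag3 mean stood beside a median of 0 CPM. Primary mice 8 and 10 held 49 and 23 of its 135 UMIs, each in 1 cell. T_CD8_Lag3 was below T_CD8_Gzmk in 15 of 22 samples and above it in 6. Of the 51435 UMIs of Gzma in T and NK cells, 81.8% were in NK_Ncr1 and 12.3% in T_CD8_Gzma, as the bars of the UMI origin plot show.

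**Figure D1:**
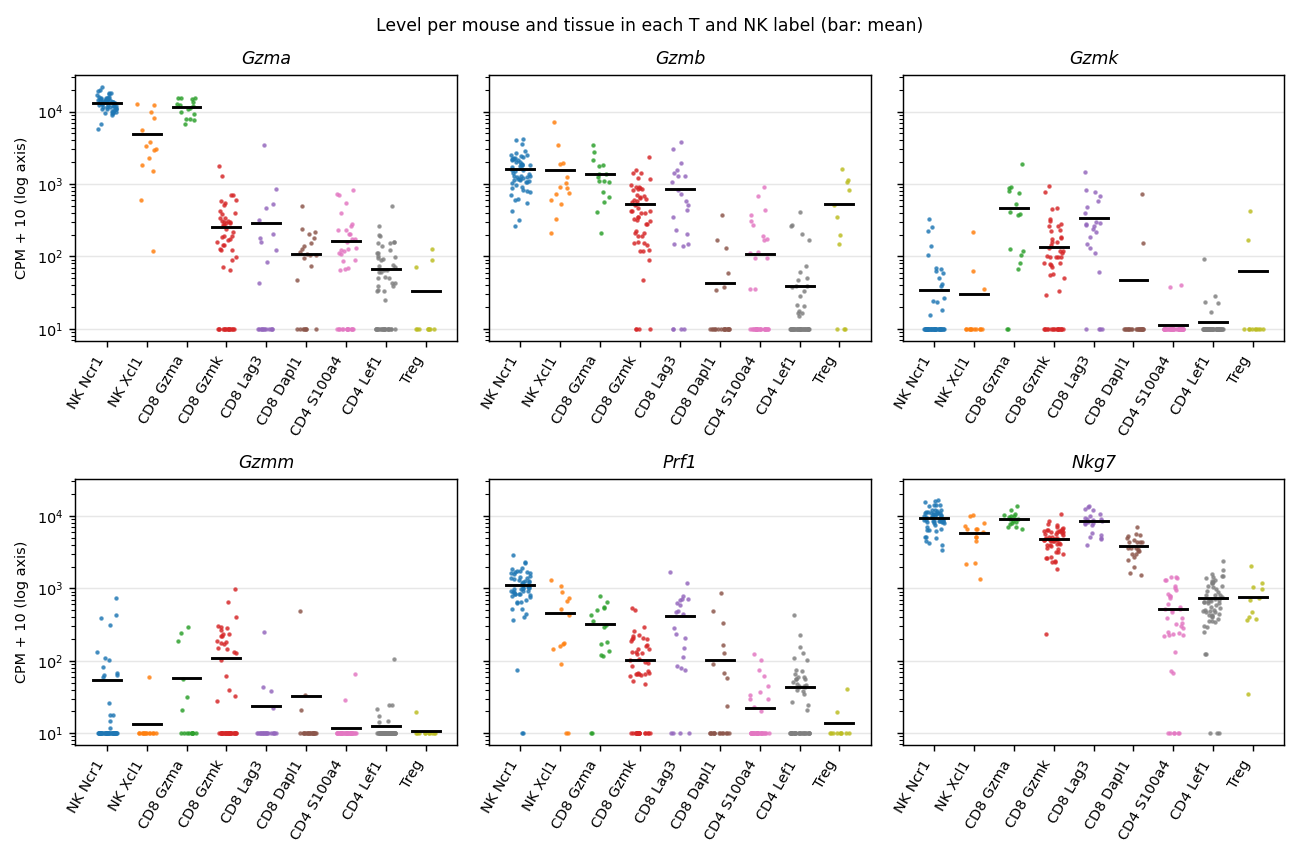
CPM + 10 on a log axis of the 6 genes in the sums of the 9 T and NK labels; each point is 1 mouse and tissue and the bar is the mean. Mean Gzma was 13278, 4899 and 11408 CPM in NK_Ncr1, NK_Xcl1 and T_CD8_Gzma and 276 CPM or less in the other labels, with single sums that overlap, and mean Nkg7 was 3799 CPM or above in the NK and CD8 labels, with single sums down to 224 CPM.

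Gzmb was spread over more labels. It had means of 1597 ± 854 CPM in NK_Ncr1 (n = 56), 1549 ± 1847 in NK_Xcl1 (n = 14), 1360 ± 873 in T_CD8_Gzma (n = 16) and 850 ± 991 in T_CD8_Lag3 (n = 23), and these overlapped. T_Treg (525 ± 550 CPM, n = 11) and T_CD8_Gzmk (516 ± 467 CPM, n = 54) came next, also overlapping. Primary supplied 4 of the 11 T_Treg sums and 4 of the 54 T_CD8_Gzmk sums, and within samples T_Treg was below T_CD8_Gzmk in 10 of 11. T_CD4_S100a4, T_CD8_Dapl1 and T_CD4_Lef1 were at 98.7, 32.4 and 28.7 CPM, and B cells at 8.28 CPM. T_CD8_Gzma exceeded T_CD8_Gzmk in 14 of 16 samples that held both. T_CD8_Lag3 was above T_CD8_Gzmk in 12 of 22 samples and below it in 10.

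Gzmk was sparse, with 830 UMIs in all T and NK cells. T_CD8_Gzma held 453 ± 492.6 CPM (n = 16), T_CD8_Lag3 326 ± 342 CPM (n = 23) and T_CD8_Gzmk 125 ± 180 CPM (n = 54), and the ranges overlapped. Within samples, T_CD8_Gzma was above T_CD8_Gzmk in 11 of 16 and below it in 4, and T_CD8_Lag3 was above T_CD8_Gzmk in 15 of 22. T_CD8_Gzmk still held 34.2% of all Gzmk UMIs, because it had 1612 cells. T_Treg, T_CD8_Dapl1, NK_Ncr1 and NK_Xcl1 were between 20.5 and 52.3 CPM, and both CD4 labels were below 2.5 CPM. Gzmk thus lay in effector and dysfunctional CD8 labels, and NK_Ncr1 was below T_CD8_Gzma in 14 of 16 samples, unlike the neighboring gene Gzma.

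Gzmm, the sparsest of the 6 by UMIs (451), had its highest mean in T_CD8_Gzmk, at 99.3 ± 176 CPM (n = 54), with 0 UMIs in many of the sums (24 of 54 had any). T_CD8_Gzma (48.2 ± 93.4 CPM, n = 16) and NK_Ncr1 (43.8 ± 125 CPM, n = 56) followed, overlapping it. T_CD8_Gzma was below T_CD8_Gzmk in 12 of 16 samples, the opposite order to Gzma, Gzmb and Nkg7. T_CD8_Gzmk held 65.4% of the Gzmm UMIs, in 71 cells, of which 1 held 35.

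**Figure D2:**
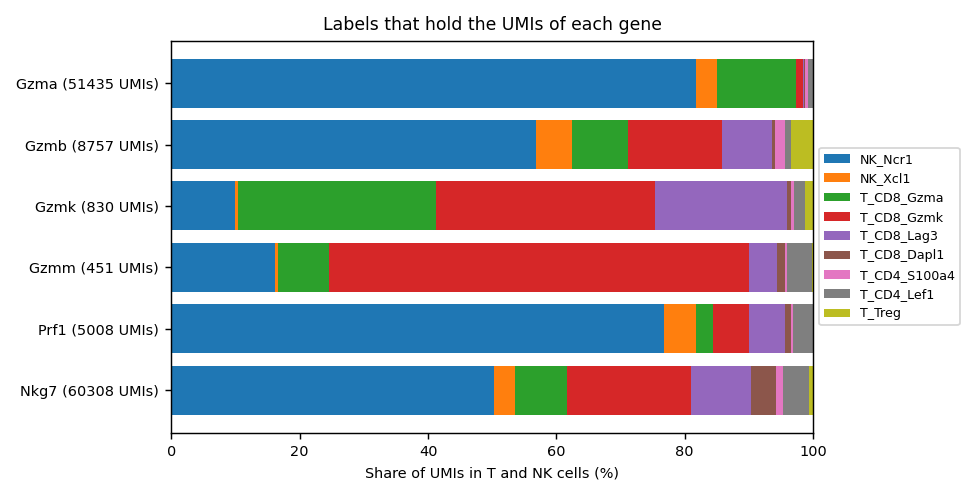
Share of each gene's UMIs in T and NK cells (x axis, percent) by label, all tissues pooled. NK_Ncr1 holds 81.8% of Gzma and 76.8% of Prf1, and T_CD8_Gzmk holds 65.4% of Gzmm; shares also reflect how many cells a label has.

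Prf1 was highest in NK_Ncr1, at 1096 ± 561 CPM (n = 56), above T_CD8_Gzma in 16 of 16 samples and above T_CD8_Gzmk in 49 of 49. NK_Xcl1 (444 ± 418 CPM, n = 14), T_CD8_Lag3 (409 ± 422 CPM, n = 23) and T_CD8_Gzma (312 ± 232 CPM, n = 16) overlapped. T_CD8_Lag3 exceeded T_CD8_Gzmk, at 92.3 ± 113 CPM (n = 54), in 17 of 22 samples. T_CD8_Dapl1 was at 92.6 CPM. T_Treg had 3 UMIs of Prf1 in 206 cells beside 294 of Gzmb, so that the 49 Treg cells with Gzmb included 1 with Prf1.

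Nkg7 means were 9470 ± 3051 CPM in NK_Ncr1 (n = 56), 9198 ± 1896 in T_CD8_Gzma (n = 16) and 8485 ± 2714 in T_CD8_Lag3 (n = 23), which overlapped. NK_Xcl1 (5812 ± 2682 CPM, n = 14), T_CD8_Gzmk (4852 ± 1821 CPM, n = 54) and T_CD8_Dapl1 (3799 ± 1355 CPM, n = 23) were lower by mean and overlapped each other. Their ranges also overlapped those of the labels above them, as with 224 to 10693 CPM in T_CD8_Gzmk and 3403 to 16807 CPM in NK_Ncr1. Both T_CD8_Gzma (16 of 16 samples) and T_CD8_Lag3 (22 of 22) were above T_CD8_Gzmk. The labels T_Treg, T_CD4_Lef1 and T_CD4_S100a4 had means of 502 to 746 CPM, above the mean of B cells at 114 ± 154 CPM (n = 33). Single sums overlapped, down to 0 CPM in both CD4 labels and up to 679 CPM in B cells.

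To compare shares of cells at 1 depth, each cell was thinned to 500 UMIs. No cell was shallower. A UMI of Gzma remained in 92.6% of NK_Ncr1 cells (exact binomial 95% interval 91.5% to 93.7%, 95.03% before thinning), 91.2% of T_CD8_Gzma cells (87.9% to 93.9%) and 46.0% of NK_Xcl1 cells (38.9% to 53.2%). In the other T labels it was 2.43% to 6.76%, next to 3.70% in B cells (2.64% to 5.02%) and 3.27% in neutrophils. The interval of T_CD8_Gzmk (5.58% to 8.10%) was above that of B cells. T_CD4_S100a4 (5.54%) was also above the B cell interval, but its own interval (4.14% to 7.24%) overlapped it. A share within the B cell interval is not read as expression. Intervals cover counting error over pooled cells only, and not the spread between mice and tissues. B cell sums ran from 0 to 266 CPM of Gzma, so the pooled B cell share need not be the background of each tissue.

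Gzmb was found in 31.3% to 35.7% of the cells of NK_Ncr1, NK_Xcl1 and T_CD8_Gzma, in 20.7% of T_CD8_Lag3, in 15.5% of T_Treg (10.9% to 21.2%) and in 11.97% of T_CD8_Gzmk, next to 0.474% of B cells. These shares are pooled over tissues, and Primary held 255 of the 294 Gzmb UMIs of T_Treg in 81 of its 206 cells. Prf1 was found in 29.6% of NK_Ncr1 and 14.4% of T_CD8_Lag3 cells, but in 9.33% of T_CD8_Gzma and 0.485% of T_Treg cells, the latter close to B cells at 0.190%. Gzmk was at 13.1% in T_CD8_Gzma (9.83% to 16.9%), 6.34% in T_CD8_Lag3 (4.02% to 9.44%) and 3.97% in T_CD8_Gzmk (3.07% to 5.04%), with 0.0948% in B cells. Nkg7 was found in 72.6% to 91.6% of the cells of all NK and CD8 labels, and 79.3% of T_CD8_Dapl1 cells carried it, while 1.86% of them carried Gzmb.

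**Figure D3:**
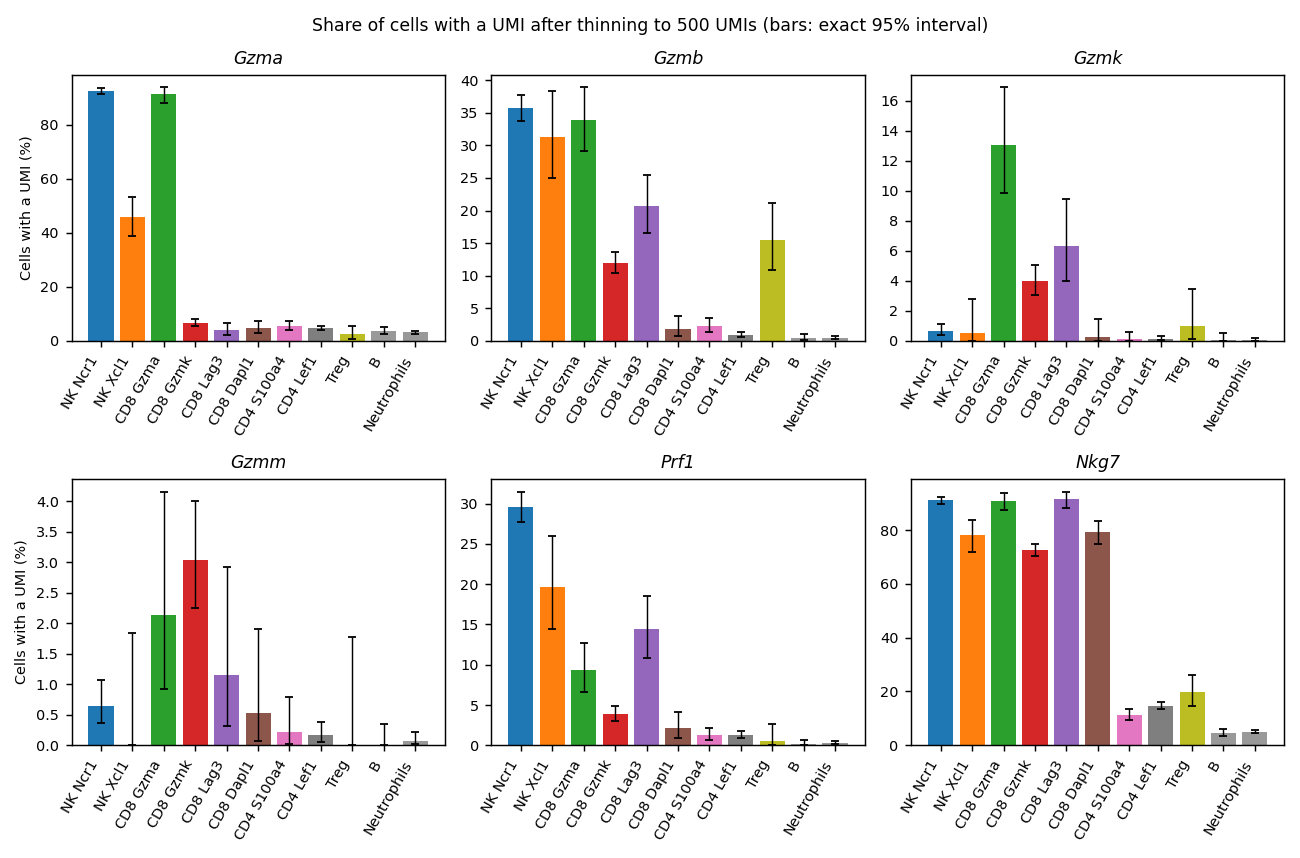
Share of cells with a UMI of each gene (y axis, percent, scale differs by panel) after thinning to 500 UMIs, with exact 95% binomial intervals, in 9 T and NK labels and in B cells and neutrophils. Nkg7 is found in 72.6% or more of every NK and CD8 label, Gzmk reaches 13.1% in T_CD8_Gzma, and Gzmb is at 15.5% in T_Treg.

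Cells with both of 2 members are given without thinning. In NK_Ncr1, 1088 of 1118 cells with Gzmb and 954 of 977 with Prf1 also had Gzma, a gene found in 2197 of the 2312 cells. In T_CD8_Gzmk, 29 of 111 cells with Gzmk had Gzma and 39 had Gzmb, against 203 and 287 of all 1612 cells. A cell with Gzma held on average 19.1 UMIs of it in NK_Ncr1 and 17.3 in T_CD8_Gzma, but 2.75 in T_CD8_Gzmk and 1.37 in T_CD4_Lef1, where 208 of 270 such cells held 1 UMI. Gzmb gave 4.45 UMIs per such cell in NK_Ncr1 and 6.00 in T_Treg.

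Over the 293 sums, log2(CPM + 10) of Gzma correlated with Prf1 (Pearson r = 0.66) and Gzmb (0.65) and little with Gzmk (0.10) or Gzmm (0.12). Among 3572 genes, the closest to Gzma were Ncr1 (r = 0.76), Klrb1c (0.73) and Fcer1g (0.72), and to Prf1 they were Klre1 (0.68), Klri2 (0.67) and Ncr1 (0.67). Ccl5, which encodes a chemokine of effector lymphocytes, was the closest to Gzmb (0.74), Nkg7 (0.67), Gzmk (0.45) and Gzmm (0.33). The sums share mice, libraries and labels and differ in depth, so the values are descriptions.

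Between tissues, 4 populations were tested with edgeR on the summed counts: NK_Ncr1, T_CD8_Gzmk, T_CD8_Lag3 and all T labels together (All T). Up to 5 differences were taken in each, namely Pre-MET minus Normal, Distal normal tissue minus Relapse-free, MET minus Distal normal tissue, MET Core minus MET Invasive margin and Primary minus MET Core. The first asks what precedes metastasis, the next 3 compare regions and outcomes, and the last compares the metastasis with the primary tumor. Distal normal tissue enters 2 of these differences and MET Core another 2, so the values of each such pair stand side by side only. Enough sums were found for 16 of the 20 differences, which held 67 tests of members. No member passed an adjusted p (Benjamini-Hochberg over all genes) of 0.05, and 5 of 67 (7.46%) had an unadjusted p below 0.05, against 6.72% of all 30226 tests. The p-values measure the spread between sums of a mouse and tissue, shared over all tissues in the fit. Sums of the same mouse were taken as independent, except in the fits with mouse as a block.

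In NK_Ncr1 cells, 4 members passed the filter on low counts, and none passed the test between tissues. Gzma values were 11199, 14098 and 14343 CPM in Normal and 12467, 13359 and 16897 in Pre-MET. Relapse-free lungs ranged from 9846 to 15076 CPM (median 13564, n = 6), in Distal normal tissue from 9614 to 22106 (13447, n = 12), in MET from 5784 to 19959 (13038, n = 13) and in MET Core from 9591 to 17562 (11923, n = 12). In MET Invasive margin the lowest, median and highest of 5 samples were 9412, 13411 and 15502 CPM, and the 2 Primary samples, too few to test, were at 6745 and 19271. The tissues overlapped throughout.

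Gzmb in NK_Ncr1 cells had medians from 1120 CPM in Pre-MET (309 to 1801, n = 3) to 2116 CPM in MET Core (534 to 4012, n = 12) among the tested tissues, overlapping. The median was 1189 CPM in Relapse-free lungs (960 to 1891, n = 6) and 1203 CPM in Normal. It was 1155 CPM in MET, 1575 CPM in Distal normal tissue and 1487 CPM in MET Invasive margin. Prf1 medians lay between 515 CPM in Pre-MET (391 to 1642, n = 3) and 1258 CPM in MET Invasive margin (608 to 1752, n = 5) among the tested tissues. Nkg7 was above all 3 Normal samples (9699, 9710 and 10149 CPM) in all 3 Pre-MET samples (11127, 11953 and 13825 CPM), with a log2 fold change of 0.16 ± 0.46 (edgeR p = 0.732). The share of all genes without overlap between these samples was not counted. Normal sums were in batch 2 and Pre-MET sums mainly in batch 12, so tissue and batch cannot be told apart. For Nkg7 the 2 Primary samples were at 3954 and 5106 CPM. Gzmk, which did not pass the filter, was at 0 in all 3 Pre-MET samples and 7.99 to 40.4 CPM in Normal. The Pre-MET sums held 9706, 18879 and 38401 UMIs, against 123752 to 134651 in Normal. At that depth the zeros cannot tell a lower level from too few UMIs. The edgeR log2 fold changes of the 16 member tests were between -0.61 and 0.36 with standard errors of 0.22 to 0.64, and the lowest adjusted p was 0.968. Of all 1598 genes tested, 0%, 0.0626%, 0% and 0% were called in Pre-MET minus Normal, Distal normal tissue minus Relapse-free, MET minus Distal normal tissue and MET Core minus MET Invasive margin, and DESeq2 also called no member.

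**Figure D4:**
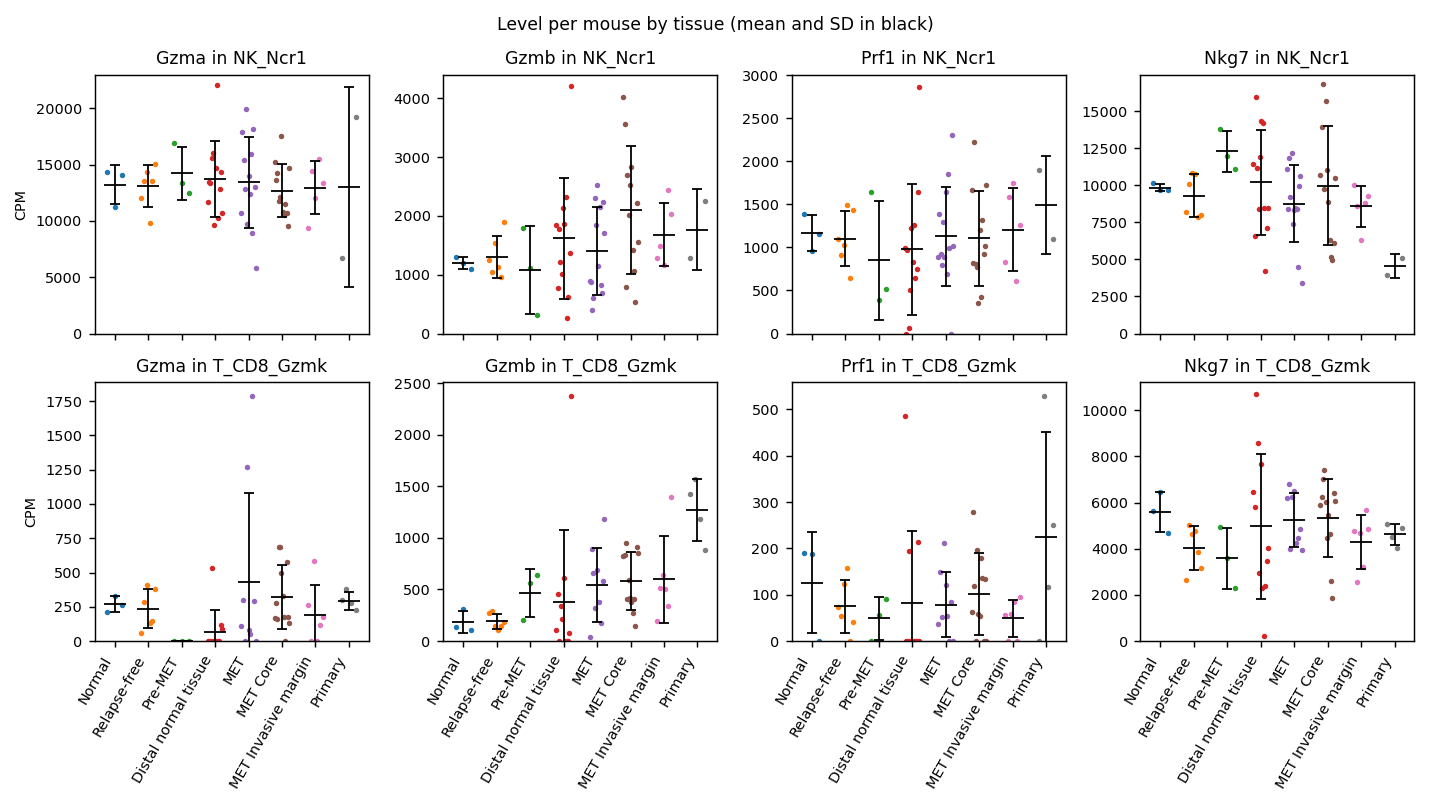
CPM of Gzma, Gzmb, Prf1 and Nkg7 in NK_Ncr1 (upper row) and T_CD8_Gzmk sums (lower row) by tissue; each point is 1 mouse, with mean and SD in black. Gzma of NK_Ncr1 overlaps in all tissues, and Gzmb of T_CD8_Gzmk is at 881 to 1568 CPM in Primary.

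In T_CD8_Gzmk cells, 3 members passed the filter. In primary tumors Gzmb was at 1428, 1568, 1188 and 881 CPM in mice 8, 9, 10 and 38, against 144 to 952 CPM (median 503, n = 12) in MET Core. Of the 4 Primary samples, 3 were above every core and the fourth was within the range of the cores. The log2 fold change was 1.29 ± 0.53 (SE, edgeR, p = 0.0177, adjusted p = 0.192). Of 944 genes, 0.847% were called and 16.1% had an unadjusted p below 0.05. The fold fell to 0.09 with sequencing batch as a term and to 0.50 among cells with at least 1000 UMIs. Within batch 9, the 1 Primary sample was at 1428 CPM and the 2 cores at 857 and 908 CPM, and the other Primary samples had no core in their batch. Depth per cell differed between these tissues, and its part in the result was not tested. Gzma and Nkg7 in the same cells gave log2 fold changes with unadjusted p of 0.758 and 0.868.

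Gzma had 0 UMIs in T_CD8_Gzmk cells of all 3 Pre-MET lungs (36 cells, 38804 UMIs), against 210, 328 and 266 CPM in Normal mice 1, 2 and 3 (44 UMIs in 155 cells). Pooled over the group, a count of 0 allows up to 77.3 CPM (3 counts), at least 3.47-fold lower than the Normal mean of 268 CPM, by counting error alone. Taken per mouse, it allows 301, 168 and 274 CPM in mice 8, 9 and 10, and only the limit of mouse 9 is below every Normal value. The edgeR test gave p = 0.00445 and an adjusted p of 0.276, with 0% of 944 genes called and 10.7% at an unadjusted p below 0.05. In B cells of the same lungs, which should lack Gzma, the means were 10.4 ± 17.9 CPM in Pre-MET and 131 ± 46.0 CPM in Normal (n = 3 each), and the sum of 5 NK markers in T_CD8_Gzmk cells had medians of 904 CPM in Pre-MET (503 to 2463) and 1863 CPM in Normal (1796 to 2420). Their part in the result was not tested. Nkg7 was at 4921, 3579 and 2281 CPM in Pre-MET mice 8, 9 and 10 and 4702 to 6447 CPM in Normal (log2 fold change -0.95 ± 0.52, edgeR adjusted p = 0.500). Gzmb values of 201, 559 and 639 CPM in Pre-MET overlapped those of 111 to 312 CPM in Normal. All Normal samples were in a batch of their own, so tissue and batch cannot be told apart.

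In Distal normal tissue, Gzma of T_CD8_Gzmk cells was 0 in 8 of 11 samples and 89.6 to 533 CPM in the other 3, against 61.4 to 409 CPM (median 217, n = 6) in Relapse-free lungs (log2 fold change -1.29 ± 0.69, edgeR adjusted p = 0.643). Gzmb was at 0 to 2376 CPM (median 108, n = 11) against 109 to 296 CPM (165, n = 6), lower by the median, and the highest value was that of mouse 37 (53 UMIs in 12 cells). The fit gave a log2 fold change of 1.11 ± 0.57 (edgeR adjusted p = 0.612), which fell to 0.12 without the Relapse-free plates gated on GFP. In this comparison 0.424% of genes were called. Between MET and Distal normal tissue, 0% of genes were called and 4.98% had an unadjusted p below 0.05. Gzma was 0 to 1789 CPM (median 112, n = 9) in MET. The log2 fold change was 1.601 ± 0.68 (edgeR p = 0.0222, adjusted p = 0.891), and 0.69 in sums of at least 10 cells. The highest MET sample, mouse 33, had 10 UMIs in 9 cells. Within batches 5 and 9 the means were 148 against 107 CPM and 106 against 104 CPM, and in batch 7 that sample, at 1789 CPM, stood against 3 at 0. MET Core and MET Invasive margin overlapped in all 3 members (unadjusted p from 0.412 to 0.811, 0% called, also 0 members by DESeq2).

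The remaining members of T_CD8_Gzmk were below the filter. Prf1 means ran from 49.0 CPM in MET Invasive margin to 224 CPM in Primary, where mice 8 to 38 ranged from 0 to 529 CPM. Gzmk means ran from 33.5 CPM in Pre-MET (n = 3) to 187 CPM in MET Core (n = 12, 0 to 754). The SD was near or above the mean in each of these groups.

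In the dysfunctional T_CD8_Lag3 cells, Gzmb, Prf1 and Nkg7 could be tested in 2 comparisons, and none passed by edgeR or DESeq2 (0 of 3 members in each, 0 with unadjusted p below 0.05). Nkg7 was at 9185, 4979 and 5065 CPM in Primary mice 8, 10 and 38 and at 7902 to 13589 CPM (median 9951, n = 9) in MET Core, overlapping in mouse 8 alone. The log2 fold change was -0.60 ± 0.35 (edgeR adjusted p = 0.774), with 0.703% of 427 genes called in Primary minus MET Core and 0% in MET Core minus MET Invasive margin. The other 5 fold changes were between -0.76 and 0.36. Gzma was at 3462, 848 and 0 CPM in Primary mice 8, 10 and 38 (49, 23 and 0 UMIs) and at 0 to 518 CPM (median 33.6, n = 9) in MET Core. All UMIs of mouse 8 were in 1 of its 5 cells, and all those of mouse 10 in 1 of its 7 cells. Gzma did not pass the filter with all mice and cells. It passed in a fit without Primary mouse 38, through these 2 sums, so that a call in their direction there is no support. With all mice and no filter the log2 fold change was 3.46 ± 0.85 (edgeR adjusted p = 0.0702), and in cells of at least 1000 UMIs, where Gzma also passed the filter, it was 3.72 ± 1.23 (adjusted p = 0.579). In these fits too, Primary Gzma UMIs can come only from the same 2 cells, so the values are no support either. The sum of 5 NK markers in T_CD8_Lag3 cells was 777 to 1217 CPM in Primary and 194 to 1139 CPM in MET Core, and its part in the result was not tested.

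**Figure D5:**
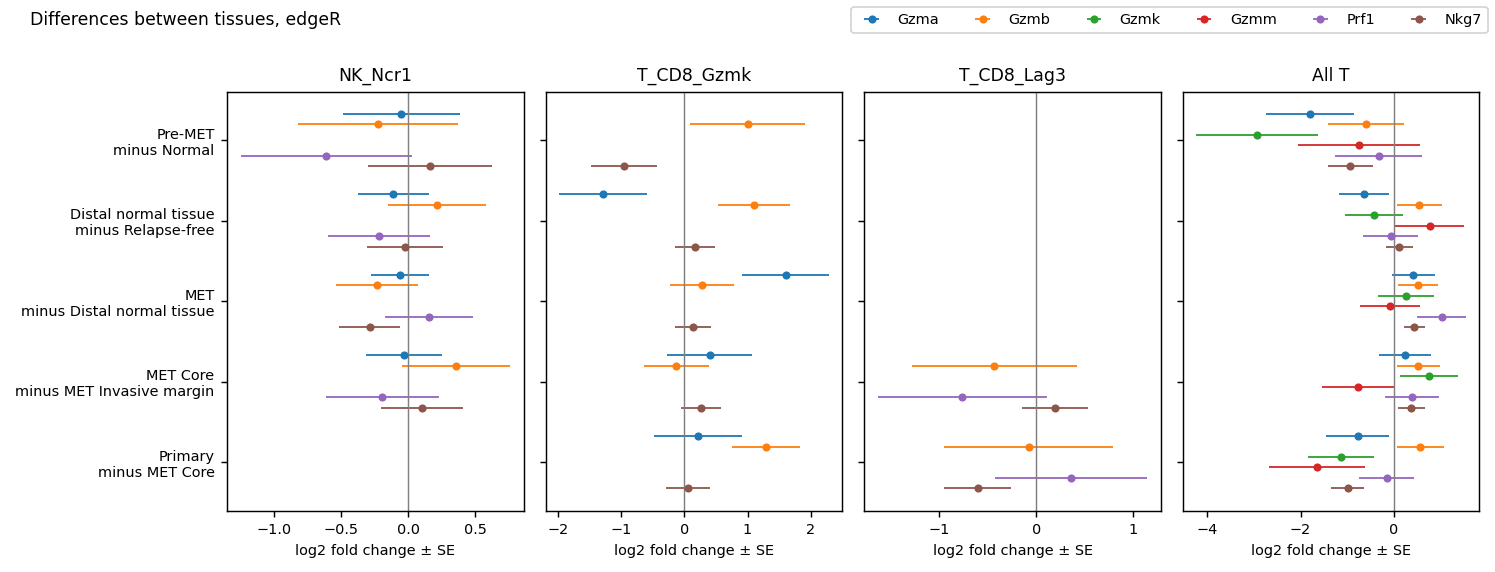
edgeR log2 fold changes (x axis, scale differs by panel) of the members that passed the filter, by comparison and population. Standard errors were derived from the F statistic of the test. Gzma of T_CD8_Gzmk in Pre-MET minus Normal is left out because Pre-MET was at 0. NK_Ncr1 values stay between -0.61 and 0.36, and no point passed an adjusted p of 0.05.

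All 6 members could be tested in All T, where a difference can come from the mix of labels. In such sums, fewer cells of a type and less RNA per cell cannot be told apart. The shares of CD8 labels given here leave out T_CD4_Lef1, whose cells held Cd8b1 more often than Cd4. Nkg7 was at 2431, 1545, 2040 and 2259 CPM in Primary mice 8, 9, 10 and 38 and at 2104 to 9112 CPM (median 4948, n = 13) in MET Core, overlapping at the lower end. Of 3652 genes in this comparison, 0.465% were called and 14.8% had an unadjusted p below 0.05. The log2 fold change of Nkg7 was -0.99 ± 0.36 (edgeR p = 0.00691, adjusted p = 0.128), and DESeq2 gave -1.07 with an adjusted p of 0.0390. With sequencing batch as a term it was -0.87 (adjusted p = 0.753), and within batch 9 the Primary sample was at 2431 CPM and the cores at 3502 and 6352 CPM. CD8 labels made up 25.9% ± 6.8 of T cells in Primary (SD, n = 4) and 59.8% ± 8.18 in MET Core (n = 13), and their part in the result was not tested. The same log2 difference of Nkg7 was 0.06 ± 0.35 in T_CD8_Gzmk and -0.60 ± 0.35 in T_CD8_Lag3.

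Between MET and Distal normal tissue, All T levels of Prf1 were 0 to 426 CPM (median 70.3, n = 13) against 0 to 170 CPM (median 0, n = 14), with a log2 fold change of 1.03 ± 0.52 (edgeR adjusted p = 0.834). Nkg7 was at 487 to 6556 CPM (3012) against 673 to 4207 CPM (2211), with a log2 fold change of 0.44 ± 0.23 (adjusted p = 0.852). Here 0.246% of genes were called (9 of 3652). Over the mice with both tissues it was 1 of 370 genes with mouse as a block and 0 of 370 without the block. CD8 labels made up 43.4% ± 10.8 of T cells in MET and 35.4% ± 9.4 in Distal normal tissue. In batches 5, 7 and 9, mean Nkg7 was higher in MET each time (3852 against 2828, 2585 against 1474 and 2863 against 1779 CPM).

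In Pre-MET minus Normal, where 0% of genes were called, Nkg7 of All T was at 1668, 1240 and 976 CPM in Pre-MET mice 8, 9 and 10, below the Normal values of 3257, 2172 and 2109 CPM (log2 fold change -0.94 ± 0.48, edgeR adjusted p = 0.830). The share of all genes without overlap was not counted, and Normal was in a batch of its own. In this comparison 5.59% of genes had an unadjusted p below 0.05. Gzma was at 786, 136 and 24.7 CPM against 2003, 354 and 898 CPM (log2 fold change -1.80 ± 0.94, edgeR adjusted p = 0.830, and -0.91 without Normal mouse 1 or -3.58 without Pre-MET mouse 8). Gzmk, with 2 UMIs in the 3 Pre-MET lungs, was at 11.9, 0 and 12.4 CPM against 142, 11.51 and 28.5 CPM (log2 fold change -2.93 ± 1.30, edgeR p = 0.0269, adjusted p = 0.830), and -1.28 without Normal mouse 1. CD8 labels made up 22.7% ± 0.759 of T cells in Pre-MET and 33.8% ± 4.93 in Normal (n = 3 each), and their part in the result was not tested. In Distal normal tissue minus Relapse-free (0.137% called) and MET Core minus MET Invasive margin (0% called), no member of All T had an unadjusted p below 0.05, the lowest being 0.183.

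In T_Treg cells no test was run. Gzmb was at 1063, 1140, 1596 and 814 CPM in Primary mice 8, 9, 10 and 38, and at 141, 0, 0 and 186 CPM in MET Core mice 17, 25, 30 and 36. MET samples of mice 31 and 36 were at 496 and 0 CPM, and the margin of mouse 36 at 345 CPM. The Primary samples were above all other Treg samples, and the share of all genes that separate in this way was not counted. Primary mice 9, 10 and 38 were in batch 10, which held no other tissue. Primary Treg sums had a median of 47317.5 UMIs, against 17117 in MET Core and 14248.5 in MET. The part of batch and depth was not tested. These sums were singled out after their values were seen.

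The 26 other genes of the pathway comprised 6 further granzymes, 10 genes of granule content and release, 3 granzyme inhibitors, 2 death ligands and 5 transcription factors. Of these, 9 were tested in NK_Ncr1, 2 each in T_CD8_Gzmk and T_CD8_Lag3, and 10 in All T, and none was called in any of the 16 comparisons by edgeR (1 with unadjusted p below 0.05 in NK_Ncr1 Pre-MET minus Normal and 1 in All T Distal normal tissue minus Relapse-free). In NK_Ncr1 Pre-MET minus Normal the median log2 fold change of the 9 genes was -0.39, against -0.18 over all genes, and in All T Primary minus MET Core it was 0.12 for 10 genes and 0.12 over all.

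These genes are named for their levels, after the values were seen. Pooled over cells, the inhibitors Serpinb9, which blocks granzyme B, and Serpinb6b were at 911 and 718 CPM in NK_Ncr1 and at 711 and 625.4 CPM in NK_Xcl1, against 177 and 200 CPM in T_CD8_Gzmk. The death ligand gene Fasl was at 408 CPM in both NK_Ncr1 and T_CD8_Gzma. The T-box genes Eomes and Tbx21 were at 250 and 173 CPM in NK_Ncr1, 109 and 140 CPM in T_CD8_Gzma and 98.0 and 69.9 CPM in T_CD8_Gzmk. Zeb2, a transcriptional repressor that promotes terminal effector differentiation, was at 232 CPM in NK_Ncr1, 251 CPM in T_CD8_Gzma and 58.3 CPM in T_CD8_Gzmk. Srgn, the proteoglycan that packs granules, was at 634 CPM or above in every T and NK label and at 998 CPM in B cells, so that it did not follow the members.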

How the data were processed

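Single cells sorted into 148 plates of 384 wells were sequenced by the authors, who mapped reads to mm10 with HISAT (bcl2fastq 2.15.0.4 is named in the submitters' processing notes), collapsed them to UMIs and deposited raw counts per gene and well, with no normalization, and a cell annotation. Per the labels, each plate belongs to 1 mouse and tissue. Here cells of at least 500 UMIs with a T or NK label were summed per mouse, tissue and label (at least 5 cells). Sums were scaled to CPM and tested in edgeR 4.0.16 (quasi-likelihood, TMM, Benjamini-Hochberg) with all tissues in 1 fit, at least 3 sums per group. Standard errors were derived as the absolute log2 fold change over the square root of the F statistic of the test. The 6 members are always named, pathway genes where called, and fold changes are printed for members with an unadjusted p below 0.10, and for a few others chosen after their values were seen. No doublet caller was run. MET and Distal normal tissue, and core and margin, share mice, so mouse number pairs them by animal; deviations of paired sums correlated with a median r of 0.0254 to 0.182. Alternatives were DESeq2 1.42.0, other filters, batch and mouse terms and omitted mice. The members and lists were chosen with earlier results of these data known. Tests were also run on simulated counts drawn independently for each sum, without effects of mouse or batch. That check does not cover sums that share a mouse or a batch.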

Additional observations from a re-analysis of the deposited data

Results flagged for a closer look

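A sample stood apart from the rest of its tissue in 11 of 64 groups of 4 to 10 samples. Chance gives about 1 in 20 for normally spread values, a rate that need not hold for counts with many zeros. The groups are not separate either, since All T includes the cells of T_CD8_Gzmk and T_CD8_Lag3. Most concern Gzmm, a gene of few UMIs. In NK_Ncr1 cells of Relapse-free lungs mouse 35 was highest at 8.10 CPM of Gzmm (2 UMIs). Gzmm of T_CD8_Gzmk was highest at 388 CPM in Relapse-free mouse 11, 629.7 CPM in MET mouse 36 (37 UMIs in 42 cells) and 178 CPM in Primary mouse 8 (3 UMIs). In T_CD8_Lag3, Gzmm stood out at 243 CPM in MET mouse 36 (2 UMIs) and 33.6 CPM in MET Core mouse 31 (1 UMI), Gzma at 518 CPM in MET Core mouse 30 and Gzmk at 818 CPM in MET Core mouse 25. In the invasive margin, Gzmb of mouse 36 was at 1401 CPM in T_CD8_Gzmk (133 UMIs in 57 cells, next sample 642 CPM) and at 1004 CPM in All T (next sample 283 CPM). Gzmm of All T was at 26.3 CPM in Primary mouse 8.

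The 336 cells that the annotation calls erythrocytes, which no comparison used, held Gzma at 2967 CPM, Gzmb at 314 CPM, Prf1 at 137 CPM and Nkg7 at 3079 CPM over 401132 UMIs. B cells were at 49.2, 8.52, 11.8 and 96.4 CPM. A UMI of Gzma was found in 22.6% of these cells. The sums of mice 17 and 18 were at 2154 to 5064 CPM of Gzma and 4158 to 5194 CPM of the hemoglobin gene Hba-a1. The sums of mice 7 and 26 were at 299.5 and 0 CPM of Gzma and 161600 and 233734 CPM of Hba-a1. The sums of mice 17 and 18 also held Ncr1 at 107 to 271 CPM, Klre1 at 138 to 286 CPM and Cd3e at 0 to 91.4 CPM. All of these were 0 in mice 7 and 26. The T and NK cells of mice 17 and 18 were in batch 4. What the labelled cells are was not tested.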

How the results depend on the processing

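Of 90 alternative fits other than omitting a mouse, 89 called no member, and of 37 fits omitting a mouse 36 did. The exceptions were All T Primary minus MET Core, where DESeq2 called 1 member (Nkg7, log2 fold change -1.07, adjusted p = 0.0390), and T_CD8_Lag3 Primary minus MET Core, where omitting a mouse gave 0 to 1 members called, the 1 being Gzma without Primary mouse 38, which passed the filter only through 2 high Primary sums. The causes were not tested. With mouse as a block for the pairing of tissues, 0 members were called in all 7 fits, and over the same mice All T MET minus Distal normal tissue called 1 of 370 genes with the block and 0 without it, and MET Core minus MET Invasive margin 2 of 930 and 0. None of 102 alternative values of the member fold changes with an unadjusted p below 0.10 turned sign. Of all 511 member fold changes, 63 did, 0 of them called. None of 162 mean levels moved by over 1 SD of the sums. Where the SD was above the mean, as for Gzma in T_CD8_Lag3 (276 ± 728 CPM), even a fall to 0 would not count. For such levels this check cannot show stability. The number of genes called in All T Primary minus MET Core was 17, against 68 by DESeq2, 218 without the filter, 11 in cells of at least 1000 UMIs, 1 with the batch term and 2 to 26 without a Primary mouse. In T_CD8_Gzmk it was 8, against 32, 99, 0, 1 and 0 to 2 (0 also in sums of at least 10 cells). In All T Distal normal tissue minus Relapse-free it was 5, against 2, 395, 8 and 0, 15 in sums of at least 10 cells and 2 without the GFP-gated plates. In T_CD8_Gzmk the same difference gave 4, against 0 to 12, and in NK_Ncr1 1, against 0 to 9. NK_Ncr1 MET minus Distal normal tissue gave 0, against 10 without the filter. T_CD8_Lag3 Primary minus MET Core gave 3, against 0 to 5. All T MET minus Distal normal tissue gave 9, against 6 by DESeq2 and 3 in cells of at least 1000 UMIs. MET Core minus MET Invasive margin gave 0, against 1 in NK_Ncr1 with the batch term and 1 in T_CD8_Lag3 without the filter. The batch term could not be fitted for the 3 Pre-MET minus Normal differences. Cells of at least 1000 UMIs were too few for T_CD8_Gzmk Pre-MET minus Normal and T_CD8_Lag3 MET Core minus MET Invasive margin, as were sums of at least 10 cells for T_CD8_Lag3. Gzmk had a UMI in 36 and Gzmm in 24 of the 54 T_CD8_Gzmk sums, and whether depth set the zeros was not tested. The fits without GFP-gated plates, without a margin mouse and over mice with both tissues but no block, and the alternatives for mean levels, were chosen after seeing the data.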

Other observations

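The granzyme genes of the cluster around Gzmb on chromosome 14 were sparse and are named after their values were seen, with no test. Gzmc had 415 UMIs in 67 T and NK cells, 256 of them in 31 of the 198 NK_Xcl1 cells, and was at 623 CPM pooled over that label against 5.01 CPM in NK_Ncr1. Among NK_Xcl1 sums it reached 105, 673, 1010 and 1376 CPM in MET Core mice 28, 17, 25 and 36, 575 and 3206 CPM in the margins of mice 17 and 33, and 310, 571 and 965 CPM in Primary mice 8, 38 and 10. It was 0 in the other 5 sums, MET Core mouse 30, MET mice 31 and 36 and Relapse-free mice 6 and 7. Gzmf had 114 UMIs in 5 T_CD8_Lag3 cells, of which 106 UMIs were in 2 cells of Primary mouse 38, and Gzmd had 31 UMIs in 4 such cells.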
